A study of Drosophila melanogaster with 30 samples.

Results

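Naive flies of the lines MB477 and MB131 were compared in 6 of the 30 nuclear RNA libraries of the series, the 3 libraries titled naive of each line, over all genes with enough counts to test (11457 of the 17559 genes listed). The series is from Drosophila melanogaster, and its title gives Kdm4B target genes in the mushroom body as the aim. Per the labels, naive flies were not activated, and both groups are of the strain CS10 with mushroom body as the tissue. The 24 other libraries are activated flies of both lines, and naive and activated flies of both lines with RNA interference (RNAi) against Kdm4B. Naive and activated flies lacking CsChrimson, a light-gated cation channel, complete them. Activated flies had 5 min of activation followed by 10 min of rest.

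Which cells the lines MB131 and MB477 mark is not given in the sources used here, nor are the driver, the transgenes or the age and sex of the flies. Per the labels' protocols, nuclei were pulled out of crosslinked head homogenate with an anti-FLAG gel, and RNA was selected with oligo-dT beads. Nothing states that replicates came from separate flies or preparations, so the p-values given here reflect the scatter among single libraries, and that scatter may be technical.

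The mushroom body is the paired centre of the fly brain in which odour memories form. Its intrinsic neurons, the Kenyon cells, receive odour input on their dendrites and dopamine signals along their axons. When both arrive together, dopamine receptors and the calcium-sensitive adenylate cyclase encoded by rut raise cAMP in the Kenyon cell and change its output synapses. Kenyon cells release acetylcholine and the short neuropeptide F encoded by sNPF. Different driver lines mark different Kenyon cell classes, which differ in the transcription factors and adhesion proteins they carry.

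The 6 libraries held 8498801 to 11684873 counts, and pairs of replicates differed by more than sampling noise. On the first principal component of log2 levels, which held 26.8% of the variance, the 3 naive MB477 libraries lay from 64.2 to 68.0. The other 27 libraries lay from -25.5 to 22.9, and the 3 naive MB131 libraries among them from -21.5 to -13.8. The naive MB477 libraries therefore stood apart from every other group, the other MB477 groups included, and each result of the naive pair rests on them. The labels do not say whether these libraries were prepared separately. The line and anything particular to these libraries therefore cannot be told apart in this pair. Where line difference is written below, it names MB477 minus MB131 and no cause. On that component the naive MB131 replicates lay at -13.8, -18.9 and -21.5 and those of naive MB477 at 68.0, 65.3 and 64.2. Both spreads were small beside the distance between the groups.

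**Figure D1:**
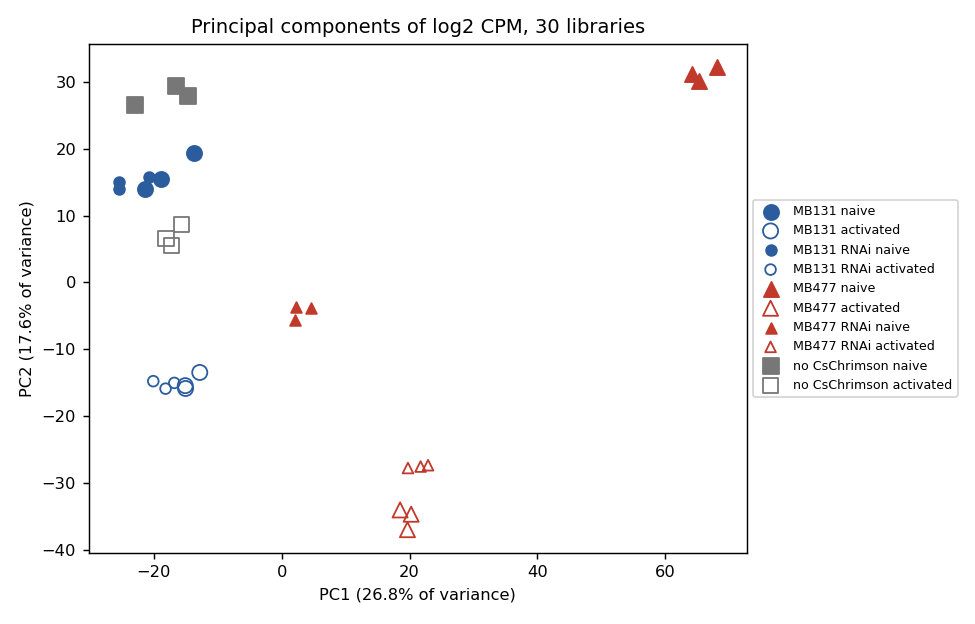
First and second principal components of log2 CPM (counts per 1000000 counts) over the 11457 tested genes, 1 point per library. Triangles are MB477, circles MB131 and squares flies without CsChrimson, open symbols are activated flies and small symbols carry RNAi. The 3 naive MB477 libraries lie at 64.2 to 68.0 on the first component, and the other 27 at 22.9 or below.

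Most genes differed between the naive MB477 and the naive MB131 libraries. Levels are given as CPM (counts per 1000000 counts, scaled with TMM factors). A gene was called when its Benjamini-Hochberg adjusted p fell under 0.05 in edgeR's quasi-likelihood F test. Of the 11457 genes, 3320 (29.0%) were higher and 3616 (31.6%) lower in MB477, together 6936 (60.5%). By more than 2-fold, 801 (6.99%) were higher and 1001 (8.74%) lower. The levels of the groups did not overlap in 7310 genes (63.8%). The median log2 fold change over all genes was 0.01 and the median absolute change 0.47. With so large a share called, a count of members past the test has to be read against 29.0% and 31.6%.

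The direction of the difference moved with the length of the gene. When genes were cut into 5 groups of about equal size by summed exon length, the shortest held genes of 46 to 984 bp. Of these, 43.6% were higher and 12.3% lower in MB477, with a median log2 fold change of 0.45. In the group of the longest genes, from 3811 bp upward, 18.0% were higher and 60.0% lower, with a median of -0.36. Across the 11241 genes with an annotated length, Pearson's r of the log2 fold change with log10 exon length was -0.21, given as a description since genes are not independent replicates. The same medians ran from 0.06 to -0.08 in activated flies, from 0.06 to -0.06 in naive RNAi flies and from 0.13 to -0.13 in activated RNAi flies. The part of length in the list results was examined with a length-dependent scaling, chosen after the data were seen, which takes out the trend with exon length before the test. It left 3094 genes higher and 3218 lower. Of 6799 genes with a length that were called at first, 5206 were called in the same direction with it and 103 in the opposite one. Its counts are given beside a list where they moved by over 1.5 times or where the sign of the median turned.

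**Figure D2:**
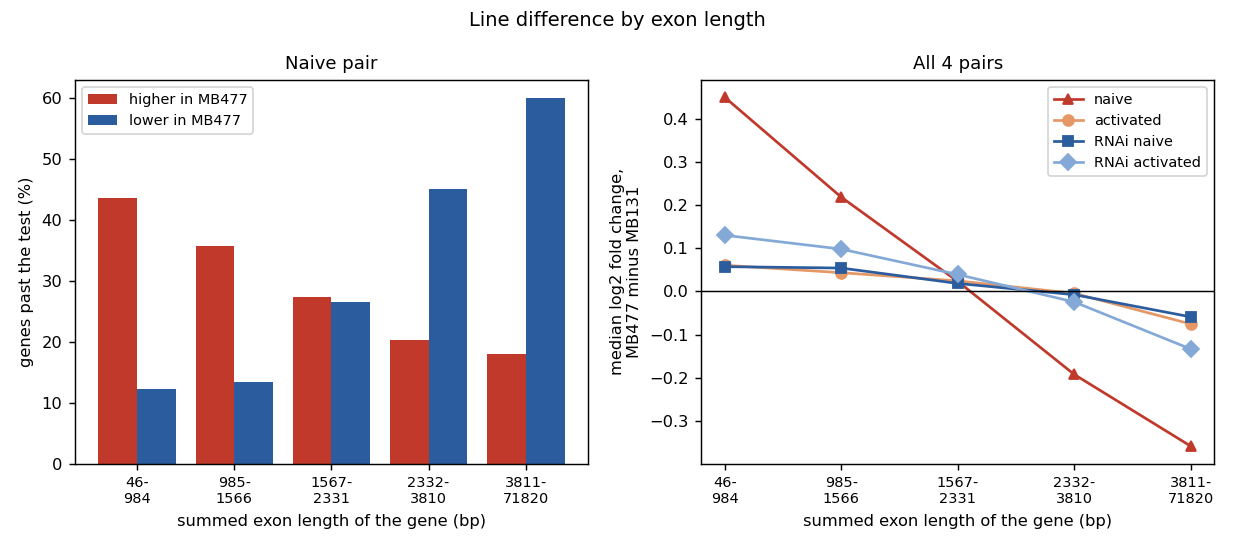
Line difference by summed exon length, in 5 groups of the 11241 genes with an annotation. Left, the percentage of genes past the test in naive flies. Right, the median log2 fold change in each of the 4 pairs of groups. In the naive pair the median falls from 0.45 to -0.36, and in the other 3 pairs it stays between 0.13 and -0.13.

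Genes that mark Kenyon cells were mostly lower in naive MB477 flies, with the neuropeptide sNPF changing most. Of the 21 markers, 6 were higher and 15 lower in MB477, with a median log2 fold change of -0.78. The median stayed at -0.78 with length-dependent scaling. Their summed level ran from 10706 to 11097 CPM across the MB131 libraries, against 8931 to 9114 CPM in MB477, and no marker was at 0. Each library pools nuclei pulled out of head homogenate, so fewer cells of a type, less RNA per cell and a difference in which nuclei the gel took cannot be told apart.

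The short neuropeptide F gene sNPF (FBgn0032840, dm6 2L from 20027915 to 20056373) stood at 508, 545 and 531 CPM in the MB131 libraries and 66.7, 69.1 and 67.3 CPM in the MB477 libraries. All 3 MB477 libraries lay far below all 3 of MB131, a log2 fold change of -2.96 ± 0.05 (SE; adjusted p = 3.06e-72, edgeR). The vesicular transporter gene prt (portabella), which is expressed in Kenyon cells, stood at 164, 163 and 163 CPM in the MB131 libraries and 24.1, 31.8 and 28.7 CPM in the MB477 libraries. Its log2 fold change was -2.53 ± 0.08 (edgeR adjusted p = 3.07e-44). The adenylate cyclase gene rut (dm6 X from 14787478 to 14826073), needed in Kenyon cells for olfactory learning, stood at 612, 658 and 699 CPM in the MB131 libraries and 136, 140.4 and 142 CPM in the MB477 libraries. It was lower by the test, at -2.23 ± 0.08 (edgeR adjusted p = 1.24e-17). The dopamine receptor gene Dop1R2, which acts in forgetting and memory in these neurons, stood at 194, 206 and 204 CPM in the MB131 libraries and 44.2, 42.5 and 46.7 CPM in the MB477 libraries, and its log2 fold change was -2.18 ± 0.07 (edgeR adjusted p = 5.51e-41). The groups did not overlap for any of these genes.

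Other Kenyon cell markers, named after their values were seen, did not share one direction. The transcription factor dac went from 161 ± 9.95 CPM to 37.4 ± 1.71 CPM (SD, n = 3) and the RNA-binding protein gene mub from 873 ± 52.7 CPM to 238 ± 5.51 CPM. The Pax6 gene ey, which is active in all Kenyon cells, went from 560.2 ± 15 CPM to 342 ± 16.9 CPM, a change of -0.71 (-0.43 with length-dependent scaling). The 6 markers that were higher include dnc, which encodes the cAMP phosphodiesterase that opposes rut, at 817 ± 26.6 CPM and 1334 ± 26.5 CPM. They also include mamo, ab, Eip93F, Imp and the adhesion molecule gene Fas2. For mamo, a transcription factor of some Kenyon cell classes, the log2 fold change was 0.51 ± 0.04, for ab 0.49 ± 0.06, for Eip93F 0.49 ± 0.05, for Fas2 0.23 ± 0.05 and for Imp 0.15 ± 0.05. All 5 were called, and these changes were smaller than those of the markers that fell most.

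**Figure D3:**
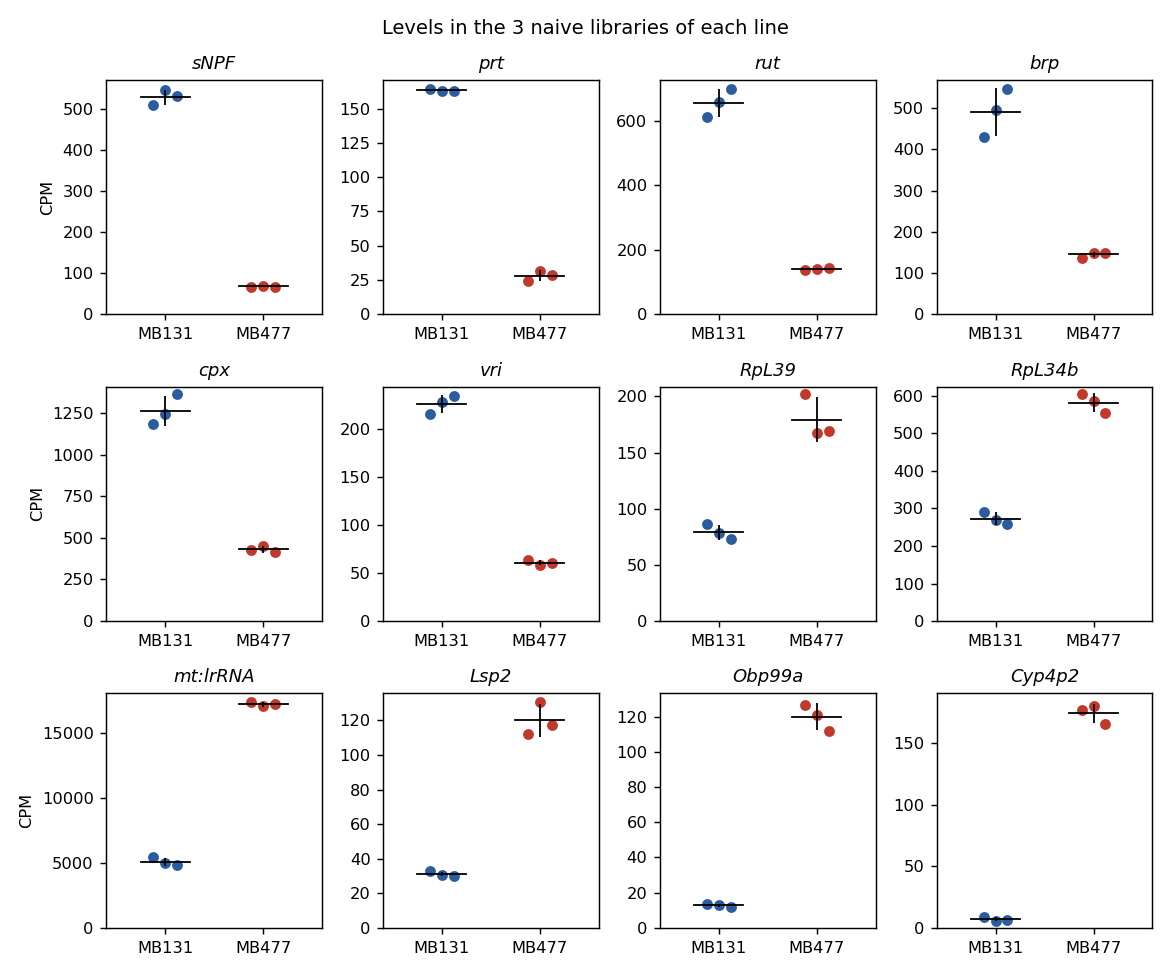
CPM of 12 genes in the 3 naive MB131 (blue) and the 3 naive MB477 libraries (red). Points are libraries, horizontal lines means and vertical lines ± SD. The groups do not overlap in any panel: sNPF, prt, rut, brp, cpx and vri are lower in MB477, and the 6 other genes are higher.

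Synaptic genes as a group were lower in MB477, and the counts were the same with length-dependent scaling. Of the 21 presynaptic release genes tested, 3 were higher and 18 lower in MB477 (median -0.88), and with length-dependent scaling the counts were 3 higher and 18 lower (median -0.62). The active zone scaffold gene brp stood at 431, 495 and 546 CPM in the MB131 libraries and 137, 149 and 149.6 CPM in the MB477 libraries, a log2 fold change -1.76 ± 0.09 (adjusted p = 1.06e-14, edgeR). Complexin (cpx), a clamp of vesicle fusion, stood at 1183, 1243 and 1361 CPM in the MB131 libraries and 429.6, 451 and 413 CPM in the MB477 libraries, a change of -1.55 ± 0.04 (edgeR adjusted p = 1.28e-45). For both genes the highest MB477 library lay below the lowest MB131 library. The active zone protein gene Fife changed by -1.68 ± 0.06 and the scaffold gene Liprin-alpha by -1.45 ± 0.08. The 3 higher members, named after their values were seen, were the syntaxin gene Syx1A at 1.07 ± 0.06, the calcium channel gene cac at 0.60 ± 0.04 and Rim at 0.26 ± 0.04.

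Pan-neuronal markers were mixed. Of 12 tested, 4 were higher and 8 lower in MB477 (median -0.58), and their summed level ran from 7365 to 7886 CPM across the MB131 libraries, against 6795 to 7115 CPM in MB477. The synaptobrevin gene nSyb stood at 691, 694 and 744 CPM in MB131 and 363, 379 and 383 CPM in MB477, which gives -0.92 ± 0.04 (edgeR adjusted p = 5.36e-39), and -0.61 with length-dependent scaling. The RNA-binding protein gene elav, the usual marker of neuronal nuclei, stood at 154, 175 and 184 CPM in MB131 and 146, 152 and 136 CPM in MB477, so the change of -0.24 ± 0.05 (edgeR adjusted p = 5.69e-05) was small. With length-dependent scaling elav turned to 0.13 (edgeR adjusted p = 0.0196). The sodium channel gene para went the other way, from 1797 ± 68.6 CPM to 2808 ± 114.6 CPM, at 0.64 ± 0.04.

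Receptors for amines were lower in MB477 almost throughout the list. Of 16 tested, 1 was higher and 13 lower in MB477 (median -0.89). With length-dependent scaling the counts were 4 higher and 9 lower (median -0.56). The type 1 dopamine receptor gene Dop1R1, required in Kenyon cells for aversive and appetitive learning, stood at 180.5, 173 and 182 CPM in MB131 and 54.4, 52.6 and 51.4 CPM in MB477, a change of -1.75 ± 0.07 (edgeR adjusted p = 1.64e-42). The octopamine receptor gene Octbeta1R stood at 211, 204 and 217 CPM in MB131 and 83.3, 74.3 and 72.9 CPM in MB477, at -1.45 ± 0.06, and the inhibitory dopamine receptor gene Dop2R changed by -1.43 ± 0.08. The single higher member, named after its values were seen, was Octbeta2R, from 265 ± 12.1 CPM to 504 ± 14.6 CPM.

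Receptors for acetylcholine, GABA and glutamate were lower more often than higher, and these counts moved with length-dependent scaling. Of 12 acetylcholine receptor genes, 3 were higher and 8 lower in MB477 (median -0.27), against 4 higher and 4 lower with length-dependent scaling (median -0.02). The nicotinic subunit gene nAChRalpha4 changed by -1.90 ± 0.07 and the muscarinic receptor genes mAChR-A and mAChR-B by -1.31 ± 0.07 and -1.75 ± 0.11. The subunit gene nAChRalpha3 went the other way, at 73.3, 59.4 and 71 CPM in MB131 and 175, 171 and 156 CPM in MB477 (1.30 ± 0.08, edgeR adjusted p = 1.16e-23). Of 14 GABA and glutamate receptor genes, 2 were higher and 10 lower in MB477, against 3 higher and 6 lower with length-dependent scaling. The metabotropic glutamate receptor gene mGluR stood at 82.3, 87.1 and 96.7 CPM in MB131 and 23.9, 22 and 21.3 CPM in MB477, a change of -1.98 ± 0.08 (edgeR adjusted p = 1.37e-40).

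Signalling genes tied to memory changed in both directions. Of 25 genes of the cAMP and calcium pathways, 8 were higher and 16 lower in MB477 (median -0.37), against 9 higher and 10 lower with length-dependent scaling. The adenylate cyclase gene Ac3 changed by -1.62 ± 0.08 and Nf1, the neurofibromin gene, by -0.94 ± 0.07. CaMKII, the calcium/calmodulin kinase gene, went from 551 ± 9.65 CPM to 289.6 ± 10.3 CPM, and pum, a translational repressor gene, from 674 ± 45.7 CPM to 1188 ± 45 CPM; these members were named after their values were seen. The summed level of the list, from 8485 to 8724 CPM across the MB131 libraries, against 8329 to 8671 CPM in MB477, overlapped between the lines.

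Of 36 neuropeptide and peptide-processing genes, 8 were higher and 16 lower in MB477, with a median of -0.01, and with length-dependent scaling 2 higher and 14 lower. Beside sNPF, the prohormone convertase gene amon stood at 419, 459 and 442 CPM in MB131 and 117, 133 and 131 CPM in MB477, a change of -1.79 ± 0.05 (edgeR adjusted p = 3.03e-55). The neuropeptide precursor gene Nplp1 changed by -1.34 ± 0.07. Of 16 genes for transmitter synthesis and transport, 3 were higher and 9 lower in MB477 (median -0.23), against 5 higher and 6 lower (median 0.05) with length-dependent scaling. The choline transporter gene ChT changed by -1.42 ± 0.06, the vesicular GABA transporter gene VGAT by -1.25 ± 0.07 and the histidine decarboxylase gene Hdc by -1.05 ± 0.10.

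Cell surface genes of the dpr, DIP, beat and side families, which pair up at synapses between neurons, were lower in most members. Of 53 tested, 7 were higher and 34 lower in MB477 (median -0.44), and with length-dependent scaling 11 higher and 25 lower. The gene dpr19 stood at 86.4, 85.7 and 73.7 CPM in MB131 and 25.7, 26.7 and 25.1 CPM in MB477, a change of -1.66 ± 0.08 (edgeR adjusted p = 6.93e-36). DIP-kappa changed by -1.65 ± 0.10, side-III by -1.57 ± 0.08 and side-VII by -1.56 ± 0.07.

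Ion channel genes differed in both directions. Of 20 potassium channel genes, 6 were higher and 9 lower in MB477 (median -0.07), against 10 higher and 6 lower with length-dependent scaling (median 0.14). The channel gene Elk stood at 237, 268 and 258 CPM in MB131 and 60.4, 68.8 and 62.9 CPM in MB477, a change of -1.99 ± 0.07 (edgeR adjusted p = 6.15e-40). Shal changed by -1.31 ± 0.07 and Shab by -1.24 ± 0.04. The summed level of the list was nonetheless higher in MB477, running from 7197 to 7569 CPM across the MB131 libraries, against 8039 to 8555 CPM in MB477. Abundant members that were higher, named after their values were seen, include Sh at 0.42 ± 0.04, Ih at 0.70 ± 0.04 and Hk at 0.79 ± 0.04. Of 12 sodium and calcium channel genes, 3 were higher and 6 lower in MB477 (median -0.16), against 6 higher and 3 lower with length-dependent scaling (median 0.20). The calcium channel subunit genes Ca-beta and stj changed by -1.64 ± 0.08 and -1.23 ± 0.05. Here too the summed level was higher in MB477, running from 6173 to 6548 CPM across the MB131 libraries, against 6927 to 7339 CPM in MB477, with para and cac, the channel genes given earlier, and Nckx30C, a sodium/calcium exchanger gene, at 0.49 ± 0.04, as the 3 higher members.

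Activity-regulated genes, transcribed soon after neurons fire, were lower in naive MB477 flies, which per the labels had not been activated. Of 16 tested, 1 was higher and 13 lower in MB477 (median -0.56), against 2 higher and 7 lower with length-dependent scaling. The nuclear receptor gene Hr38 stood at 16, 14.8 and 15.3 CPM in the MB131 libraries and 7.17, 6.46 and 4.26 CPM in the MB477 libraries. These values give -1.35 ± 0.17 on the log2 scale (adjusted p = 1.48e-11, edgeR), and the groups did not overlap. The stripe gene sr, the fly counterpart of Egr, stood at 12.4, 13.3 and 11.4 CPM in MB131 and 7.56, 7.41 and 7.68 CPM in MB477, a change of -0.71 ± 0.17 (edgeR adjusted p = 1.93e-04), and kay, the Fos gene, at 184, 201 and 199.7 CPM in MB131 and 142, 150.1 and 140.1 CPM in MB477, a change of -0.43 ± 0.05 (edgeR adjusted p = 2.08e-12). The calls of sr and kay were lost with length-dependent scaling, at adjusted p = 0.0759 and 0.202. CG13055 was the member that changed most, from 10.9 ± 0.464 CPM to 1.51 ± 0.949 CPM (SD, n = 3).

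The transcript of Kdm4B, the histone demethylase named in the series title, could hardly be measured. It stood at 0.752, 1.02 and 0.957 CPM in the MB131 libraries and 1.08, 1.14 and 0.473 CPM in the MB477 libraries, and its log2 fold change was 0.00 ± 0.61 (edgeR adjusted p = 0.997), so a difference between the lines was not detectable at this depth. Its paralog Kdm4A stood at 14.4, 14 and 16.9 CPM in the MB131 libraries and 5.5, 2.47 and 6.03 CPM in the MB477 libraries and was lower, at -1.71 ± 0.19 (edgeR adjusted p = 3.41e-13). Of 26 genes of histone methylation, 4 were higher and 16 lower in MB477 (median -0.39). The Polycomb subunit gene Su(z)12 changed by -1.33 ± 0.08, and the trithorax group methyltransferase genes ash1 and trr by -1.13 ± 0.10 and -1.10 ± 0.10.

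Clock genes were lower in 7 of 13 members and higher in 1 (median -0.23), with 3 higher and 8 lower under length-dependent scaling. The clock repressor gene vri, which follows the time of day, stood at 216, 228 and 235 CPM in the MB131 libraries and 63.7, 58.3 and 60.4 CPM in the MB477 libraries, a change of -1.90 ± 0.06 (edgeR adjusted p = 1.36e-48). The period gene per changed by -0.63 ± 0.07 and the clock kinase gene dco by -0.79 ± 0.06, while the receptor gene Pdfr was higher, at 0.61 ± 0.05. With length-dependent scaling these were -0.30, -0.45 and 0.94. The hour of collection is not given in the sources used here, and its part was not tested. Of 13 sex-related genes, 6 were higher and 6 lower in MB477, against 6 higher and 2 lower with length-dependent scaling. The dosage compensation gene msl-2, whose protein is made in males, stood at 36.5, 41.2 and 48.9 CPM in MB131 and 17, 15.6 and 15.8 CPM in MB477, a change of -1.38 ± 0.11 (edgeR adjusted p = 1.05e-20), and the female yolk protein gene Yp3 at 3846, 3682 and 3714 CPM in MB131 and 6878, 6782 and 6463 CPM in MB477 (0.84 ± 0.05). The share of each sex in the libraries was not tested.

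Genes of the translation machinery and of mitochondrial respiration were higher in MB477. Of 82 cytoplasmic ribosomal protein genes tested, 79 were higher and 1 lower in MB477 (median 0.86), and their summed level ran from 29059 to 32332 CPM across the MB131 libraries, against 50394 to 54233 CPM in MB477. With length-dependent scaling the counts were 73 higher and 1 lower (median 0.45). These genes are short, with a median exon length of 927 bp. The gene RpL39 stood at 86, 78.5 and 72.7 CPM in the MB131 libraries and 202, 167 and 169 CPM in the MB477 libraries, a change of 1.18 ± 0.08 (edgeR adjusted p = 6.07e-17), or 0.59 with length-dependent scaling. The near copies RpL34a and RpL34b, between which reads could be split, changed by 1.16 ± 0.08 and 1.09 ± 0.05, and RpL36A by 1.05 ± 0.05. Of 43 translation factor genes, 26 were higher and 4 lower in MB477 (median 0.24). The elongation factor subunit genes eEF1delta and eEF1beta changed by 0.77 ± 0.07 and 0.68 ± 0.05, and eEF1alpha2 went the other way, at -0.65 ± 0.04.

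Of 74 nuclear genes of oxidative phosphorylation, 62 were higher and 2 lower in MB477 (median 0.85), and with length-dependent scaling 61 higher and 2 lower (median 0.50). The list also took rare paralogs such as COX7AL, which is described with the genes near 0. Transcripts encoded by mitochondrial DNA did not move together. Of 15 tested, 5 were higher and 2 lower in MB477, against 2 higher and 3 lower with length-dependent scaling. The large mitochondrial rRNA mt:lrRNA stood at 5449, 4985 and 4825 CPM in the MB131 libraries and 17416, 17036 and 17219.9 CPM in the MB477 libraries, a change of 1.76 ± 0.18 (edgeR adjusted p = 1.21e-08), whereas mt:ND5, a subunit of complex I, stood at 219.8, 187 and 199 CPM in MB131 and 80.8, 78.6 and 80.9 CPM in MB477, at -1.33 ± 0.18. These genes lie close together on both strands, and whether counting used strand is not given in the sources used here. Of all counts, 0.915% to 1.04% came from mitochondrial genes in the MB131 libraries and 2.12% to 2.15% in those of MB477. The summed level of the mitochondrial list ran from 8911 to 10163 CPM across the MB131 libraries, against 21489 to 21849 CPM in MB477, and nearly all of that rise was in mt:lrRNA, which went from 5086 ± 324 CPM to 17224 ± 190.1 CPM (SD, n = 3). Of 38 proteasome genes, 19 were higher and 2 lower in MB477 (median 0.22), and with length-dependent scaling 8 higher and 5 lower (median 0.00).

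Fat body and muscle markers were higher in MB477 more often than lower. Of 15 fat body markers tested, 10 were higher and 1 lower in MB477 (median 0.49), and their summed level ran from 4759 to 4850.3 CPM across the MB131 libraries, against 7850.1 to 7921 CPM in MB477. The storage protein gene Lsp2 stood at 32.7, 30.8 and 30.3 CPM in the MB131 libraries and 112, 131 and 117 CPM in the MB477 libraries, a change of 1.94 ± 0.07 (edgeR adjusted p = 1.24e-40). The lipoprotein gene apolpp, the main carrier of lipid in fly blood, stood at 2238, 2319 and 2340.3 CPM in MB131 and 4477, 4444 and 4440.0 CPM in MB477, a change of 0.95 ± 0.04 (edgeR adjusted p = 1.48e-25). Of 25 muscle markers, 17 were higher and 5 lower in MB477 (median 0.28), and their summed level ran from 10302 to 11031 CPM across the MB131 libraries, against 13714 to 13888 CPM in MB477. The myosin gene Mhc stood at 1725, 1829.6 and 1943 CPM in MB131 and 2202, 2225 and 2231 CPM in MB477, a change of 0.28 ± 0.04 (0.65 with length-dependent scaling), and the titin-like gene sls at 450.1, 521 and 502 CPM in MB131 and 974, 899.9 and 870.1 CPM in MB477, a change of 0.90 ± 0.05. The muscle factor Mef2, which Kenyon cells also express, was lower, at 206, 211 and 228 CPM in MB131 and 86.9, 88.9 and 87.5 CPM in MB477 (-1.29 ± 0.05).

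Photoreceptor markers were lower more often than higher, and the direction of the glial and blood cell lists depended on the scaling. Of 27 photoreceptor markers, 6 were higher and 15 lower in MB477 (median -0.35), and their summed level ran from 27523 to 28964 CPM across the MB131 libraries, against 23401 to 23741 CPM in MB477. The rhodopsin gene ninaE stood at 8458, 8058 and 8577 CPM in the MB131 libraries and 4551, 4679 and 4798 CPM in the MB477 libraries, a change of -0.84 ± 0.03 (edgeR adjusted p = 1.11e-43). The phosphatase gene rdgC changed by -1.50 ± 0.06 and the extracellular matrix gene eys by -1.14 ± 0.06. Of 19 glial markers, 2 were higher and 11 lower in MB477 (median -0.19), against 9 higher and 8 lower with length-dependent scaling, where the median turned to 0.08. The glial factor repo stood at 84.8, 85.6 and 98.1 CPM in MB131 and 58.5, 49.4 and 53.3 CPM in MB477, a change of -0.74 ± 0.08, while e, an enzyme of amine recycling, was higher, at 0.75 ± 0.06. The summed level of the glial markers ran from 5344 to 5386 CPM across the MB131 libraries, against 4634 to 4819 CPM in MB477. Of 14 hemocyte markers, 1 was higher and 5 lower in MB477 (median -0.16), a share lower that is near the 31.6% of all genes, against 6 higher and 3 lower with length-dependent scaling (median 0.15), and their summed level ran from 1157 to 1258 CPM across the MB131 libraries, against 835 to 932 CPM in MB477. Markers of other head tissues were thus present in both groups beside those of Kenyon cells, and Fbp1, a fat body marker too low to be tested, was at 0 in all MB477 libraries, the only marker of these lists at 0 in a group. The part of tissue makeup in the differences of the neuronal lists was not tested.

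**Figure D4:**
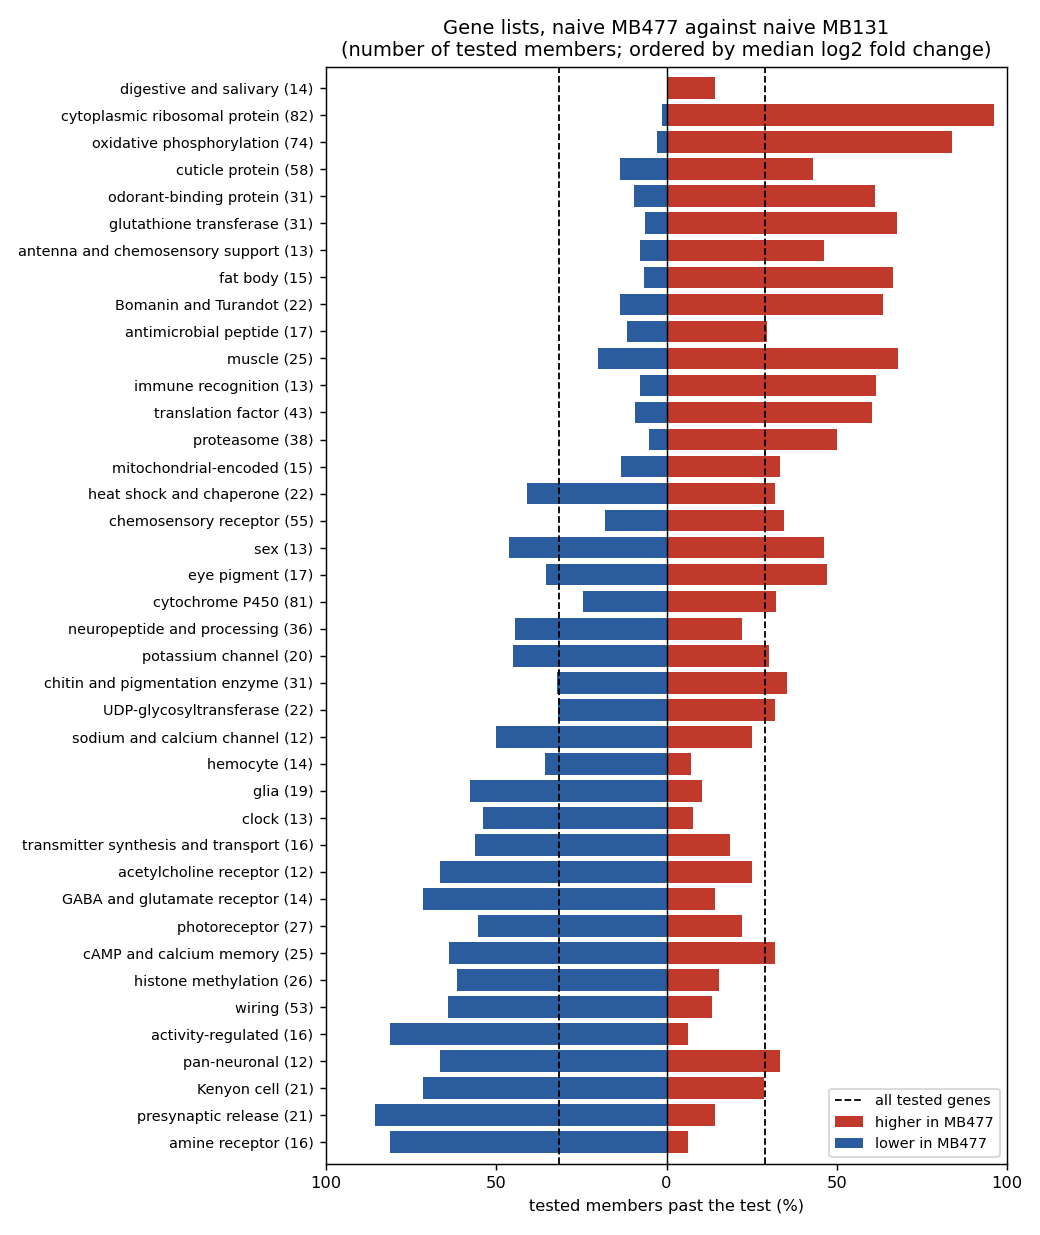
Percentage of the tested members of each gene list that were higher (right) or lower (left) in naive MB477 than in naive MB131, ordered by the list's median log2 fold change. Dashed lines mark all tested genes, 29.0% higher and 31.6% lower. Ribosomal protein and oxidative phosphorylation genes extend furthest to the right, and presynaptic release, amine receptor and activity-regulated genes furthest to the left.

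Secreted proteins of sense organs were among the genes that were higher. Of 31 odorant-binding protein genes tested, 19 were higher and 3 lower in MB477 (median 0.59), against 13 higher and 7 lower with length-dependent scaling. Obp99a stood at 13.4, 13.1 and 12 CPM in the MB131 libraries and 127, 121 and 112 CPM in the MB477 libraries, a change of 3.22 ± 0.10 (edgeR adjusted p = 7.20e-51). Obp56h and Obp56a changed by 3.05 ± 0.23 and 2.51 ± 0.19. The largest change of the list was a decrease in a rare transcript. Obp59a had 31 counts in MB131 and 1 in MB477, at -4.29 ± 1.23. Of 13 markers of antennae and chemosensory support cells, which share members with that list, 6 were higher and 1 lower in MB477 (6 higher and 3 lower with length-dependent scaling), with a summed level from 2506 to 2843 CPM across the MB131 libraries, against 4348 to 4698 CPM in MB477. Os-C was the 1 lower marker without that scaling, with 23 counts in MB131 and 2 in MB477 (-3.06 ± 1.17). Of 55 odorant, gustatory and ionotropic receptor genes, 19 were higher and 10 lower in MB477 (median 0.09). Over all genes the shares were 29.0% and 31.6%. Of the 187 listed, 57 had no count in any MB131 library.

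Cuticle protein genes were higher more often than lower. Of the 58 tested, of 125 listed, 25 were higher and 8 lower in MB477 (median 0.61), against 21 higher and 15 lower with length-dependent scaling. Many were low: Cpr35B went from 0.517 ± 0.457 CPM to 3.08 ± 0.817 CPM and TwdlX from 0.395 ± 0.207 CPM to 2.48 ± 1.07 CPM. Of 31 chitin and pigmentation genes, 11 were higher and 10 lower in MB477 (median -0.07, and 0.08 with length-dependent scaling). These shares were near the 29.0% and 31.6% of all genes. The chitin-binding protein gene obst-B changed by 1.07 ± 0.13, and t, an enzyme that hydrolyses carcinine, by -1.43 ± 0.06. Of 17 eye pigment genes, 8 were higher and 6 lower in MB477, against 8 higher and 3 lower with length-dependent scaling. The white gene w stood at 110.4, 118 and 108 CPM in MB131 and 131, 139 and 144 CPM in MB477, a change of 0.30 ± 0.06 (edgeR adjusted p = 2.81e-05). Of 14 markers of gut and salivary glands tested, 2 were higher and 0 lower in MB477, and the summed level of the list ran from 21.8 to 29.7 CPM across the MB131 libraries, against 49.2 to 54.3 CPM in MB477. Of the 34 listed, 17 were at 0 in all MB131 libraries and 11 in all MB477 libraries.

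Detoxification enzymes included both genes that were far higher and genes that were far lower. Of 31 glutathione transferase genes, 21 were higher and 2 lower in MB477 (median 0.56), against 14 higher and 3 lower with length-dependent scaling. GstE1 stood at 41.8, 29.8 and 30.8 CPM in MB131 and 62.3, 73.3 and 65.7 CPM in MB477, a change of 0.97 ± 0.09 (0.59 with length-dependent scaling). GstD11 was lower in MB477, at -1.36 ± 0.17 with length-dependent scaling. Of 81 cytochrome P450 genes, 26 were higher and 20 lower in MB477 (median 0.03). The share higher was near the 29.0% of all genes, and the share lower was below the 31.6%. Cyp4p2 (FBgn0033395, dm6 2R from 9237512 to 9239831) stood at 8.77, 5.8 and 6.7 CPM in the MB131 libraries and 177, 179.6 and 165 CPM in the MB477 libraries, a change of 4.61 ± 0.11 (edgeR adjusted p = 7.02e-56). Cyp6a14 changed by 3.04 ± 0.34 and Cyp49a1 by -2.27 ± 0.23. Of 22 UDP-glycosyltransferase genes, 7 were higher and 7 lower in MB477, shares near the 29.0% and 31.6% of all genes. Ugt49C1 stood at 131, 123 and 146 CPM in MB131 and 351, 366 and 364 CPM in MB477, a change of 1.44 ± 0.05 (edgeR adjusted p = 1.27e-44).

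Secreted immune peptides of the Bomanin type and recognition genes were higher more often than lower, but by counts that fell with length-dependent scaling. Of 22 genes of the Bomanin, Daisho and Turandot families and related peptides, 14 were higher and 3 lower in MB477 (median 0.47), against 7 higher and 4 lower with length-dependent scaling. The pattern that chose this list by name also took Dsor1, a MAP kinase kinase gene. The secreted peptide gene IM33 stood at 125, 104 and 107 CPM in MB131 and 282, 297 and 279 CPM in MB477, a change of 1.36 ± 0.06 (edgeR adjusted p = 6.51e-39), or 0.78 with length-dependent scaling. Of 17 antimicrobial peptide genes, 5 were higher and 2 lower in MB477 (median 0.46), a share near the 29.0% of all genes, against 3 higher and 4 lower with length-dependent scaling (median -0.08). Drsl4 stood at 29.1, 28.9 and 33 CPM in MB131 and 131, 120.2 and 126 CPM in MB477, a change of 2.05 ± 0.09, and Listericin at 128, 133 and 123 CPM in MB131 and 368, 367 and 335 CPM in MB477, a change of 1.48 ± 0.07 (0.93 with length-dependent scaling), whereas AttC was lower, at -1.14 ± 0.19. Of 13 genes for peptidoglycan and glucan recognition, 8 were higher and 1 lower in MB477, against 5 higher and 1 lower with length-dependent scaling. PGRP-LB changed by 1.02 ± 0.10. The lower gene was PGRP-SC2, at -1.99 ± 0.68 with length-dependent scaling, and its call depended on single libraries. Of 22 heat shock and chaperone genes, 7 were higher and 9 lower in MB477 (median 0.12), against 9 higher and 5 lower with length-dependent scaling. Hsp26 and Hsp27 changed by 1.04 ± 0.08 and 1.25 ± 0.14, and Hsp70Bb by -2.36 ± 0.12. The Hsp70 genes are near-identical copies, so their single values are uncertain.

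The largest increases were in genes close to 0 in MB131. CG12661 (FBgn0030071, dm6 X from 8922888 to 8923687) stood at 0, 0.171 and 0.174 CPM in the MB131 libraries and 64.5, 55.3 and 60.4 CPM in the MB477 libraries. Its log2 fold change was 8.91 ± 0.43 (edgeR adjusted p = 1.29e-20). The odorant receptor gene Or65c, with 2 counts in MB131 and 307 in MB477, was 185-fold higher, with a 95% counting interval of 50.8 to 1536. The ionotropic receptor gene Ir92a had 0 counts in MB131 and 77 in MB477, at least 31.0-fold higher against a floor of 3 counts over the group. The ornithine decarboxylase gene Odc2 stood at 0.919, 0.853 and 0.261 CPM in MB131 and 19.1, 22.5 and 16.1 CPM in MB477, a change of 4.8 ± 0.32 (edgeR adjusted p = 7.31e-25). CG32199 (80 counts in MB477 and 0 in MB131, at least 32.2-fold), the tRNA gene tRNA:Glu-CTC-1-1 (78 and 1), the sodium channel family gene ppk20 (184 and 3), asRNA:CR44849 (65 and 1), CG31807 (75 and 2) and CG32679 (61 and 2) complete the 10 that changed most. The intervals and the floor take in counting error alone, because reads copied by PCR do not each stand for a molecule. An antisense gene such as asRNA:CR44849 cannot be told from its partner without strand.

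The largest decreases were in genes close to 0 in MB477. COX7AL, a paralog of a cytochrome c oxidase subunit gene, had 174 counts in MB131 and 0 in MB477, at least 48.1-fold lower. CG11977 had 91 counts in MB131 and 0 in MB477, at least 25.1-fold lower. CG5267 had 161 and 2, a ratio of 66.7 with a 95% counting interval of 18.2 to 555.7. Its neighbour CG34189, which lies 147 bp away on 2R on the same strand, had 100 and 2. The spliceosomal RNA gene snRNA:U4:39B had 85 and 1, the zinc transporter gene ZnT33D 136 and 2, CG7763 77 and 1, asRNA:CR45016 71 and 1 and CG43049 93 and 2. CG31115 stood at 6.51, 8.1 and 8.7 CPM in MB131 and 0, 0.285 and 0.355 CPM in MB477, a change of -5.16 ± 0.42 (edgeR adjusted p = 1.98e-20).

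The line difference was also measured in libraries that the naive comparison did not use. Between the lines, 1655 genes (14.4%) were higher and 1699 (14.8%) lower in activated flies, together 29.3%. In naive RNAi flies 1279 (11.2%) were higher and 1334 (11.6%) lower, together 22.8%, and in activated RNAi flies 1903 (16.6%) and 1787 (15.6%), together 32.2%. The median absolute log2 fold change was 0.20, 0.17 and 0.22 in these pairs, against 0.47 in the naive pair. Across genes, Pearson's r with the naive line difference was 0.45, 0.34 and 0.51, a description since genes are not independent. In all 4 pairs, 558 genes (4.87%) were higher and 406 (3.54%) lower in MB477. These make 16.8% of the genes higher and 11.2% of those lower in the naive pair. Of the same genes, 50.4% and 48.6% were called in the same direction in none of the other pairs, and 12.3% and 11.9% were called in the opposite direction in at least 1.

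Genes that differed in every pair include some that were near 0 in one line. Besides CG12661, Ir92a and Or65c, sordd2 (dm6 X from 15796908 to 15799162) stood at 1.42, 1.45 and 1.13 CPM in the MB131 libraries and 35.7, 37.9 and 33.9 CPM in the MB477 libraries, with log2 fold changes of 4.74 ± 0.22 in naive, 5.20 ± 0.23 in activated, 5.26 ± 0.23 in naive RNAi and 4.92 ± 0.22 in activated RNAi flies. CR44383 ends 10 bp from it on X, and CG43255 lies 272 bp from CG12661, in both cases on the opposite strand. Reads of the neighbours may therefore not be separable. CG43255 went from 0.142 ± 0.178 CPM to 3.73 ± 0.454 CPM. Cyp4p2 changed by 4.05, 4.24 and 4.22 in the other pairs, and Odc2 by 5.13, 3.95 and 3.69. The amylase gene Amy-p, at 0.835, 0.768 and 0.870 CPM in MB131 and 15, 12.1 and 13.1 CPM in MB477, changed by 4.01 ± 0.33 in the naive pair and by 3.02, 4.69 and 3.53 in the others. Its near copy Amy-d could share reads with it.

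Among the genes lower in every pair, Tektin-C (FBgn0035638, dm6 3L from 5794405 to 5796543), which encodes a filament protein of cilia and flagella, stood at 76.7, 76 and 80.3 CPM in the MB131 libraries and 3.53, 3.71 and 3.66 CPM in the MB477 libraries. Its log2 fold changes were -4.41 ± 0.15, -5.04 ± 0.15, -4.22 ± 0.14 and -4.52 ± 0.16 in the 4 pairs. Naive flies without CsChrimson stood at 4.27 ± 0.948 CPM, close to MB477. The noncoding gene lncRNA:CR44460 had 54 counts in naive MB131 and 0 in naive MB477, at least 14.9-fold lower. The junction protein gene hoka changed by -4.29 ± 0.59 and the tubulin-modifying enzyme gene TTLL1B by -3.17 ± 0.63 in the naive pair. By more than 2-fold in all 4 pairs, 82 genes were higher and 38 lower. Naive flies without CsChrimson were nearer to MB131 in 78 of the 82 and in 26 of the 38, and nearer to MB477 in 4 and 12.

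**Figure D5:**
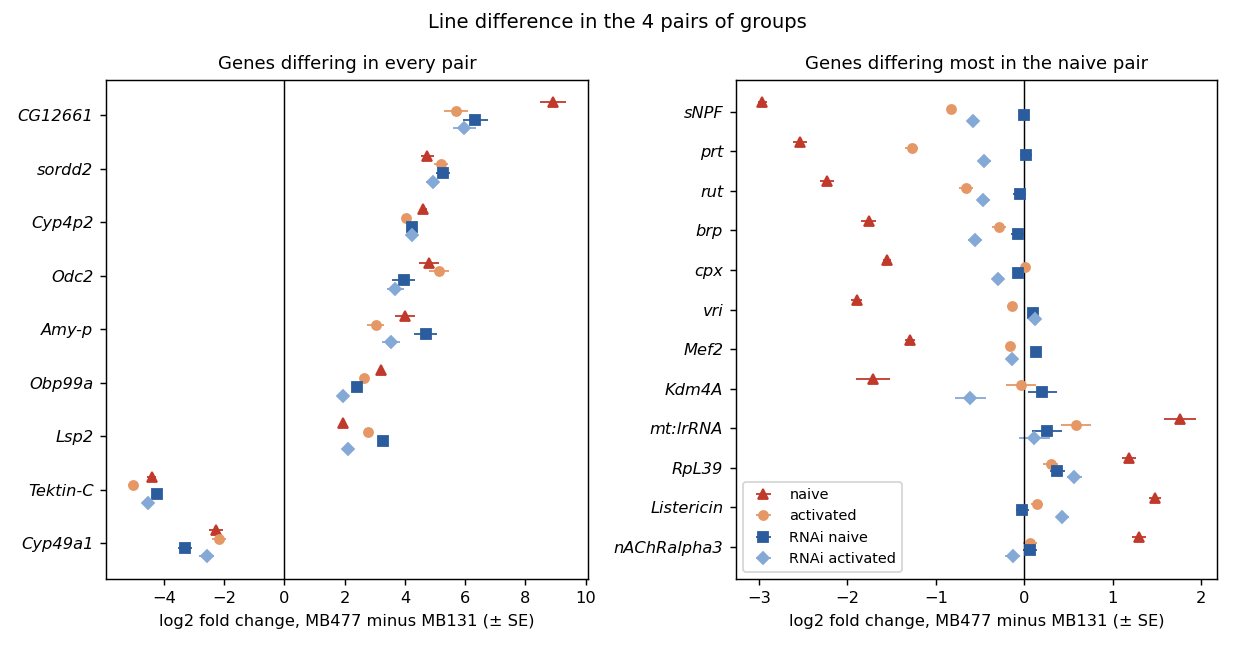
Log2 fold change between MB477 and MB131, with SE, in the 4 pairs of groups, which share no library. Left, 9 genes that differ in every pair. Right, 12 genes whose change is larger in naive flies than in any other pair, such as sNPF at -2.96 in naive and 0.00 in naive RNAi flies. The genes were chosen for these patterns.

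The naive line difference itself differed from that of the other pairs in many genes. In the test of the difference between the naive and the activated pair, 2158 genes (18.8%) were more positive and 2873 (25.1%) more negative in naive flies, together 43.9%. Against the naive RNAi pair 2354 (20.5%) were more positive and 2926 (25.5%) more negative, together 46.1%. In both tests at once and in the direction of the naive call, 1490 of the 3320 higher genes (44.9%) and 2299 of the 3616 lower genes (63.6%) were called. Among the 1490, naive MB477 had the highest mean of all 10 groups in 1344 (90.2%), and naive MB131 the lowest in 136 (9.13%). Among the 2299, naive MB477 had the lowest mean in 2194 (95.4%), and naive MB131 the highest in 169 (7.35%). Since both tests use the same naive libraries, they are not independent. The selection by these calls itself favours genes in which a naive group is extreme. These shares therefore describe the selected genes and are no separate support.

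The neuronal genes lower in naive MB477 were among those that differed. For sNPF the line difference was -0.82 ± 0.04 in activated, 0.00 ± 0.04 in naive RNAi and -0.58 ± 0.04 in activated RNAi flies. The naive difference minus the activated one was -2.14 ± 0.07 (edgeR adjusted p = 1.43e-48), and minus the naive RNAi one -2.96 ± 0.07 (edgeR adjusted p = 1.75e-61). Naive MB477 flies with RNAi held 475 ± 3.32 CPM of sNPF and naive flies without CsChrimson 490.5 ± 15.9 CPM, both nearer to naive MB131 than to naive MB477. For ey the difference from the activated pair was 0.04 ± 0.07 (edgeR adjusted p = 0.653), so none was detected, and from the naive RNAi pair -0.50 ± 0.06 (edgeR adjusted p = 9.75e-11). Of the 21 Kenyon cell markers, the counts were 1 higher and 20 lower in the activated pair, 2 higher and 7 lower in the naive RNAi pair and 0 higher and 18 lower in the activated RNAi pair. Their medians were -0.54, -0.03 and -0.34. Of the 21 presynaptic genes, 18 were more negative in the naive pair in each of the 2 tests.

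Other lists held calls in the same direction in the further pairs, and some did not. Ribosomal protein genes were higher in 77 of 82 in activated, 80 in naive RNAi and 80 in activated RNAi flies, with medians of 0.31, 0.34 and 0.43. Fat body markers were higher in 11, 7 and 11 of 15, and the line difference of Lsp2 was 2.76, 3.28 and 2.09. Muscle markers were higher in 20, 5 and 22 of 25 and lower in 2, 9 and 1. Of 27 photoreceptor markers, 2 were higher and 17 lower in the activated pair, and 2 and 16 in the activated RNAi pair. In the naive RNAi pair 15 were higher and 3 lower, and ninaE was higher in MB477 there at 0.64 ± 0.03. Cuticle protein genes were 11 higher and 12 lower in the activated pair and 6 higher and 13 lower in the naive RNAi pair. In the activated RNAi pair 16 were higher and 6 lower (median 0.39), the direction of the naive pair. For the white gene w the line difference was 2.25 ± 0.05 in naive RNAi and 1.39 ± 0.05 in activated RNAi flies, and the naive difference minus the naive RNAi one was -1.95 ± 0.08 (edgeR adjusted p = 7.45e-27).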

How the data were processed

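Read counts per gene were deposited by the authors as 1 table of raw counts for 30 libraries, and per the submitters' processing notes STAR, HTSeq, DESeq2 and the dm6 genome were used, without versions. For the strand setting and for reads with several matches, nothing is given in the sources used here. The authors' deposited comparisons do not include this one and were not used here.

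The analysis of these counts ran in R 4.3.3 (edgeR 4.0.16, limma 3.58.1) with no change to the values. Genes passed filterByExpr (minimum count 10, minimum total 15), which left 11457 genes. TMM factors set the scale. The 30 libraries shared 1 fit with 10 group means and a biological coefficient of variation of 6.32%. Contrasts of these means were put to the two-sided quasi-likelihood F test, with Benjamini-Hochberg adjustment over all genes and a threshold of 0.05. SE is the absolute log2 fold change divided by the square root of F. The model was tested on simulated data. Log2 CPM for principal components used a prior count of 2.

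Groups were taken from the titles. Identifiers were matched to the Ensembl BDGP6 annotation, whose coordinates are those of dm6 (17253 matched, 306 did not, and 1384 genes had no count). Lists were described by counts and medians only. The model and the rule for named genes (the 10 largest increases and decreases with at least 2 CPM in the higher group, up to 4 members a list, 8 in each direction in all 4 pairs, 5 in each direction for the 2 differences between pairs, and 12 markers throughout) were, like the comparison and the lists, chosen with earlier results of these data known. Alternatives were relative log expression size factors, library totals only, other filters, DESeq2 1.42.0, the 6 libraries alone, a replicate block, each replicate left out and, added later, length-dependent scaling.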

Additional observations from a re-analysis of the deposited data

Results flagged for a closer look

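The naive line difference was flagged because it differed, by a test of the difference itself, from the line difference of the activated pair and of the naive RNAi pair. The genes flagged in bulk number 2158 more positive and 2873 more negative against the activated pair, and 2354 and 2926 against the naive RNAi pair. Values below are differences between log2 fold changes of 2 pairs, named by the size of the difference. They are fitted values, and where a group has few or no counts they depend on the prior count and are no bound.

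Against the activated pair, the most positive differences were 7.18 for CG32199, 7.10 for CG11635, 5.84 for lncRNA:CR45029, 5.05 for tRNA:Glu-CTC-1-1 and 4.33 for lncRNA:CR45021. The call of tRNA:Glu-CTC-1-1 was lost with length-dependent scaling (4.68, edgeR adjusted p = 0.0716). It was also lost when single libraries were left out, as were those of CG32199, lncRNA:CR45021 and, against the naive RNAi pair, yip7. The most negative were -9.06 for CG11977, -6.12 for CG43779, -5.48 for CG7763, -5.40 for CG5267 and -5.25 for CG33234, which lies within the span of Fife on the other strand.

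Against the naive RNAi pair, the most positive were 5.89 for asRNA:CR44849, 5.66 for TTLL1B, 5.09 for CG11449, 4.68 for lncRNA:CR45361 and 4.47 for Cpr35B. The most negative were -9.65 for yip7, -7.76 for Cyp4g1, -7.07 for CG11977, -6.52 for Obp59a and -5.92 for CG5267. Of these, yip7, Cyp4g1 and CG11449 were not called in the naive pair itself. Cyp4g1, with few counts in either line, was called there without MB477 replicate 2 (fitted log2 fold change -5.50, edgeR adjusted p = 0.00907).

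Among the markers followed throughout, sNPF differed by -2.14 from the activated and by -2.96 from the naive RNAi pair, and ninaE by -0.75 and -1.48. The synaptic gene nSyb differed by -0.72 and -1.09, repo by -0.52 and -0.68, and Mhc by -0.34 and 0.33. The immediate early genes differed by -1.41 and -1.93 for Hr38, -0.53 and -0.75 for sr and -0.87 and -0.60 for kay. The gene w differed by 0.33 and -1.95, and ey by -0.50 from the naive RNAi pair. All of these are edgeR calls over 11457 genes from 3 libraries per group.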

How the results depend on the processing

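The counts of genes in the naive pair, in the 2 tests of difference between pairs and in all 4 pairs stayed within 1.5 times their reported size under each alternative run. The naive pair gave 2987 higher and 3896 lower with library totals only, 3322 and 3670 with DESeq2, 3300 and 3400 with the 6 libraries alone and 3094 and 3218 with length-dependent scaling. Leaving out 1 replicate gave 3022 to 3177 higher and 3421 to 3501 lower. Against the activated pair it gave 1890 to 2128 more positive and 2732 to 2840 more negative, against the naive RNAi pair 2124 to 2327 and 2787 to 2882, and in all 4 pairs 496 to 556 higher and 365 to 409 lower. The median log2 fold change of all genes was 0.01 with TMM, 0.01 with relative log expression and -0.04 with library totals.

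With the replicate number as a block the naive pair gave 3311 higher and 3606 lower, the differences between pairs 2145 and 2859 and 2338 and 2924, and all 4 pairs 557 and 405. Same-numbered libraries shared too little to count as pairs (correlations of deviations 0.0460, 0.0265 and 0.0550), although each correlated best with its own number.

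Single genes changed sign in 2 cases. Kdm4B, which no fit called, gave -0.00746 with DESeq2, -0.0501 with library totals, -0.00798 without a filter, -0.0261 with the replicate block, -0.00299 with relative log expression size factors and -0.20 to 0.28 without single replicates. The gene elav gave 0.13 with length-dependent scaling. Of the other named genes, 10 calls were lost with that scaling, and 1 with the replicate block (PGRP-SC2, edgeR adjusted p = 0.0504). With the 6 libraries alone the call of Hsp70Ab was lost (edgeR adjusted p = 0.0553). Akh, amn, COX6AL, Cyt-c1L, Hsp70Ab, Os-C, PGRP-SC2 and UQCR-6.4L lost their call without at least 1 single library. The cause was not tested. Depth limits genes with few counts, for which only large differences could be called.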

Other observations

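Genes of the fourth chromosome, a small and largely heterochromatic chromosome, were lower in naive MB477. Of those tested, 13.9% were higher and 62.4% lower, with a median log2 fold change of -0.57, against medians from -0.01 to 0.05 on the X and the long autosome arms. The medians were -0.07 in the activated, -0.17 in the naive RNAi and -0.26 in the activated RNAi pair, and 24.8% of these genes were called in the same direction in all 4 pairs, 4 of them higher and 21 lower, against 4.87% higher and 3.54% lower of all tested genes. Their exons are longer, with a median of 3528 bp against 1887 bp for all other genes, and long genes were lower more often than higher in the naive pair. The part of length in this value was not tested. Single genes of the chromosome differed: the lipoprotein gene apolpp changed by 0.95 ± 0.04, mGluR by -1.98 ± 0.08, Cadps by -1.07 ± 0.05 and Gat by -0.81 ± 0.06 on the log2 scale.

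Among noncoding classes, all 4 rRNA genes tested were higher in naive MB477, with a median log2 fold change of 2.01, against 0.52, 0.12 and 0.39 in the activated, naive RNAi and activated RNAi pairs. These rRNA genes include the mitochondrial mt:lrRNA, given earlier, and mt:srRNA, at 1.76 ± 0.18 and 1.24 ± 0.25 in the naive pair. Of 10 tRNA genes 4 (40%) were higher and 2 (20%) lower. Of 69 snoRNA genes 7 (10.1%) were higher and 6 (8.70%) lower, both below the 29.0% and 31.6% of all tested genes. Of 888 genes classed as ncRNA, 208 (23.4%) were higher and 268 (30.2%) lower, near or below the shares of all tested genes. Since RNA was selected with oligo-dT beads, levels of these classes also depend on that selection, whose part was not tested.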
